A study of Homo sapiens with 6 samples.

Results

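Pleiotrophin (PTN), midkine (MDK) and 5 of their cell-surface partners were followed in PC9 cells and 2 PC9 sublines. The 7 genes are the ligands PTN and MDK, the receptor-type phosphatase PTPRZ1, the syndecans SDC1, SDC3 and SDC4, and nucleolin (NCL). They were chosen by their place in this ligand-receptor system and by measured values already known from these libraries, so their own levels are given as a description with no p-value. All 7 were found among the 26485 gene symbols in the tables, and 6 of them were among the 14195 genes that reached 1 TPM in at least 2 libraries. PTPRZ1 was the member below that level. TPM, a transcript abundance, scales each gene for its length and each library to the same total. Levels of different genes in a library can be set side by side on that scale, and they depend on the length assigned to each gene.

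RNA-seq had been made from 3 human lung cancer lines grown in conventional culture, with 2 libraries each. PC9 is a lung adenocarcinoma line that carries a mutant EGFR, PC9-BrM4 is known as a brain-metastatic derivative of it, and PC9-AMG is a further subline whose abbreviation is not explained in the sources used here. No agent, transgene or deletion is named for any of the 3 lines, and the labels do not say whether a subline is a clone or a pool, or whether replicate libraries came from separate cultures. The p-values below therefore reflect the spread among these samples alone, and part of that spread may be technical.

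PTN and MDK are small secreted, heparin-binding growth factors and form a family of their own. Both bind the sulphated sugar chains of syndecans and of PTPRZ1, and binding to PTPRZ1 lowers its phosphatase activity, so that its substrates stay phosphorylated on tyrosine. Nucleolin, mainly a protein of the nucleolus, also reaches the cell surface, where it binds both ligands. Midkine is known as a growth factor that many carcinomas secrete, and pleiotrophin as a factor of developing brain and bone.

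The libraries held an estimated 2.66 to 4.39 gigabases of aligned sequence, and 13455 to 13764 genes reached 1 TPM in each. All 7 simple epithelial markers were at 1 TPM or more in every line, and their summed level was 9807 to 9836 TPM in PC9, 7923 to 8081 in PC9-BrM4 and 11659 to 11881 in PC9-AMG. Of 6 alveolar and airway markers only FOXJ1, a gene of ciliated cells, reached 1 TPM, and SFTPC and SCGB1A1 were listed at 0 in all libraries. Of 6 fibroblast markers only COL1A1 reached 1 TPM, with DCN, LUM and COL1A2 listed at 0. The summed fibroblast level was 4.78 to 5.05 TPM in PC9, 3.68 to 4.45 in PC9-BrM4 and 14.6 to 15.0 in PC9-AMG. Of 5 leukocyte markers only CD68 reached 1 TPM (sum 40.01 to 49.3 TPM), of 8 glial markers only MBP (sum 28.6 to 33.7 TPM), and of 4 endothelial markers 1 or 2 in a line (sum 2.25 to 6.04 TPM). OLIG1, OLIG2, PDGFRA, AIF1 and TYROBP were listed at 0 throughout. The part of these marker levels in the results below was not tested.

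PTN was the member that differed most between the lines. The gene lies on the minus strand of chromosome 7 (hg38 chr7:137227346-137343800). It stood at 16.7 and 17.1 TPM in the 2 PC9 libraries, at 0.260 and 0.286 TPM in PC9-BrM4 and at 8.33 and 8.89 TPM in PC9-AMG. The 3 lines did not overlap, with PC9 highest and PC9-BrM4 below 1 TPM in both libraries. Mean coverage of the gene in the deposited tables was 24.3 and 19.6 reads per base in PC9, 0.347 and 0.452 in PC9-BrM4, with 13.7 and 16.7 in PC9-AMG. The PC9 mean of 16.9 ± 0.302 TPM (SD, n = 2) was 62.0 times the PC9-BrM4 mean of 0.273 ± 0.0184 TPM and 1.97 times the PC9-AMG mean of 8.61 ± 0.399 TPM. On the log2(TPM + 1) scale the difference from PC9 was -3.82 ± 0.09 (SE of the limma fit) in PC9-BrM4 and -0.90 ± 0.09 in PC9-AMG. This scale understates the change of a gene near 0, and with a pseudocount of 0.1 the PC9-BrM4 difference was -5.51. In bulk RNA, fewer cells with PTN transcripts and less PTN RNA per cell cannot be told apart.

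**Figure D1:**
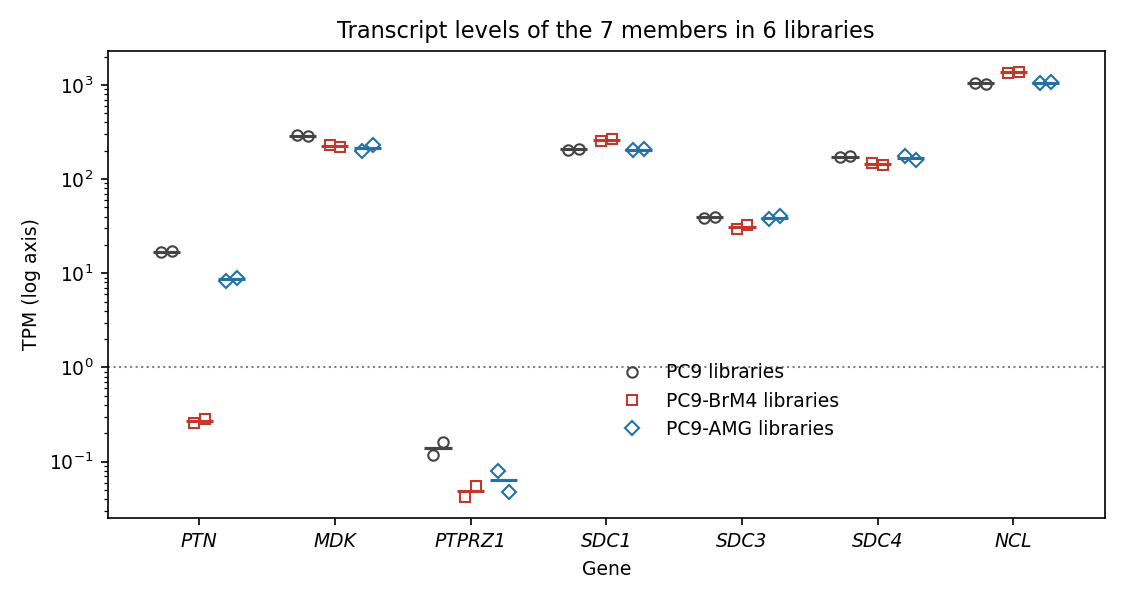
TPM of the 7 members on a log axis, 1 point per library and a short line at the mean of the 2 libraries of a line; the dotted line marks 1 TPM. PTN spans from 0.260 TPM in PC9-BrM4 to 17.1 TPM in PC9, while MDK, the syndecans and NCL stay within a narrow band in each gene.

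MDK was the abundant ligand in all 3 lines. It lies on the plus strand of chromosome 11 (hg38 chr11:46380784-46383837). Its level was 290.5 and 285 TPM in PC9, 231 and 218 TPM in PC9-BrM4 and 200.003 and 233 TPM in PC9-AMG. Both sublines were below both PC9 libraries, and the sublines overlapped each other. The means were 288 ± 3.92 TPM in PC9, 225 ± 9.33 in PC9-BrM4 and 216 ± 23.2 in PC9-AMG (SD, n = 2), which is a difference from PC9 of -21.9% and -24.8%. On the log2 scale these differences were -0.36 ± 0.07 and -0.41 ± 0.07 (SE), and the direct difference between the sublines was -0.06 ± 0.07.

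The mix of the ligands differed with PTN. PTN made up 5.44% and 5.67% of the summed TPM of PTN and MDK in PC9, 0.112% and 0.131% in PC9-BrM4, with 3.998% and 3.68% in PC9-AMG. MDK exceeded PTN 17.4-fold and 16.6-fold in the PC9 libraries, 889.9-fold and 763-fold in PC9-BrM4 and 24.0-fold and 26.2-fold in PC9-AMG. The sum of both ligands was 307 and 302 TPM in PC9, 231 and 218 in PC9-BrM4, with 208 and 242 in PC9-AMG. MDK made up most of the sum in every library, and the sums of both sublines were below those of PC9.

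PTPRZ1, the phosphatase receptor of both ligands, was below 1 TPM in all libraries and was therefore not tested. It lies on the plus strand of chromosome 7 (hg38 chr7:121873105-122062036), on the same chromosome as PTN. Its level was 0.119 and 0.162 TPM in PC9, 0.0426 and 0.0547 in PC9-BrM4, with 0.0795 and 0.0481 in PC9-AMG, at a mean coverage of 0.0569 to 0.186 reads per base. Both sublines were below both PC9 libraries, and the sublines overlapped. At this coverage a difference rests on few reads, and no fold change is drawn from it.

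The syndecans are transmembrane proteins whose sugar chains hold ligands at the surface, and SDC1, SDC4 and SDC3 kept this order of level in all 3 lines while their proportions differed. SDC1, the syndecan typical of epithelia, lies on the minus strand of chromosome 2 (hg38 chr2:20200797-20225433). It stood at 203 and 211 TPM in PC9, 254 and 267 TPM in PC9-BrM4 and 204 and 208 TPM in PC9-AMG. Both PC9-BrM4 libraries were above all others, by 26.0% of the PC9 mean (207 ± 5.76 TPM in PC9, 260.5 ± 9.02 in PC9-BrM4; SD, n = 2; log2 difference 0.33 ± 0.04, SE). In PC9-AMG it overlapped PC9 and was 206 ± 2.72 TPM.

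SDC4, a widely expressed syndecan of adhesion sites, was lower in PC9-BrM4. It lies on the minus strand of chromosome 20 (hg38 chr20:45325289-45348424) and stood at 172 and 175 TPM in PC9, 149.9 and 139.8 in PC9-BrM4, with 174 and 159 in PC9-AMG. The PC9-BrM4 libraries were below the others, by 16.5% of the PC9 mean (log2 difference -0.26 ± 0.06), while PC9-AMG overlapped PC9. SDC3, known best from the nervous system, lies on the minus strand of chromosome 1 (hg38 chr1:30869466-30908633). Its level was 38.9 and 39.4 TPM in PC9, 29.8 and 32.2 in PC9-BrM4, with 37.7 and 40.3 in PC9-AMG. It was 20.8% lower in PC9-BrM4 than in PC9 (log2 difference -0.33 ± 0.06) and overlapped PC9 in PC9-AMG.

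Summed over SDC1, SDC2, SDC3 and SDC4, the level of syndecan transcripts was 413 and 425 TPM in PC9, 434 and 439 in PC9-BrM4, with 415.5 and 407 in PC9-AMG. SDC1 made up 49.0% and 49.6% of this sum in PC9, 58.6% and 60.8% in PC9-BrM4, with 49.0% and 51.0% in PC9-AMG. The SDC4 share was 41.6% and 41.2% in PC9, 34.6% and 31.9% in PC9-BrM4, with 41.9% and 39.1% in PC9-AMG. The PC9-BrM4 libraries had the highest sums and SDC1 shares, and the lowest shares of SDC4 and SDC3. SDC2, the remaining syndecan, was listed at 0 except for 0.0238 TPM in 1 PC9-BrM4 library.

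**Figure D2:**
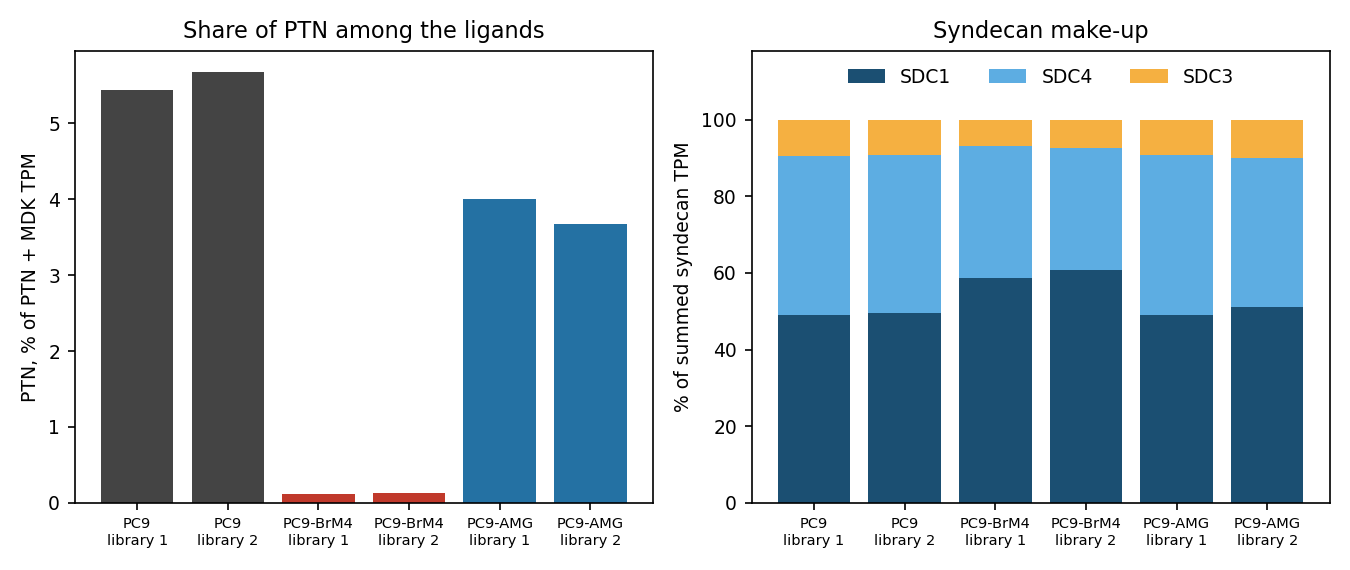
Left, PTN as a percent of PTN plus MDK in each library; right, SDC1, SDC3 and SDC4 as a percent of the summed syndecan TPM in each library. PTN is at 0.112% and 0.131% in PC9-BrM4 against 3.68% to 5.67% elsewhere, and SDC1 is at 58.6% and 60.8% in PC9-BrM4 against 49.0% to 51.0% elsewhere.

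NCL was the most abundant member in every library. It lies on the minus strand of chromosome 2 (hg38 chr2:231454748-231464494), and its span holds the small RNA genes SNORA75, SNORD20 and SNORD82, whose reads the authors' assignment could have shared with it. Its level was 1055 and 1029.8 TPM in PC9, 1350.1 and 1372 in PC9-BrM4, with 1042 and 1066 in PC9-AMG. Both PC9-BrM4 libraries were above the rest, by 30.6% of the PC9 mean (1042.5 ± 18.0 TPM in PC9, 1361 ± 15.6 in PC9-BrM4; SD, n = 2; log2 difference 0.38 ± 0.04, SE). PC9-AMG overlapped PC9, at a mean of 1054 ± 17.2 TPM.

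Side by side, PC9-BrM4 differed from PC9 in all 6 tested members, with SDC1 and NCL higher and PTN, MDK, SDC3 and SDC4 lower. Of these 6, only the ligands PTN and MDK did not overlap between PC9-AMG and PC9, while SDC1, SDC3, SDC4 and NCL did. For those 4 genes the sign of the PC9-AMG difference changed with the processing, so no direction is given. Because the same PC9 libraries enter both comparisons, the values of each are given beside one another and no agreement between them is drawn.

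**Figure D3:**
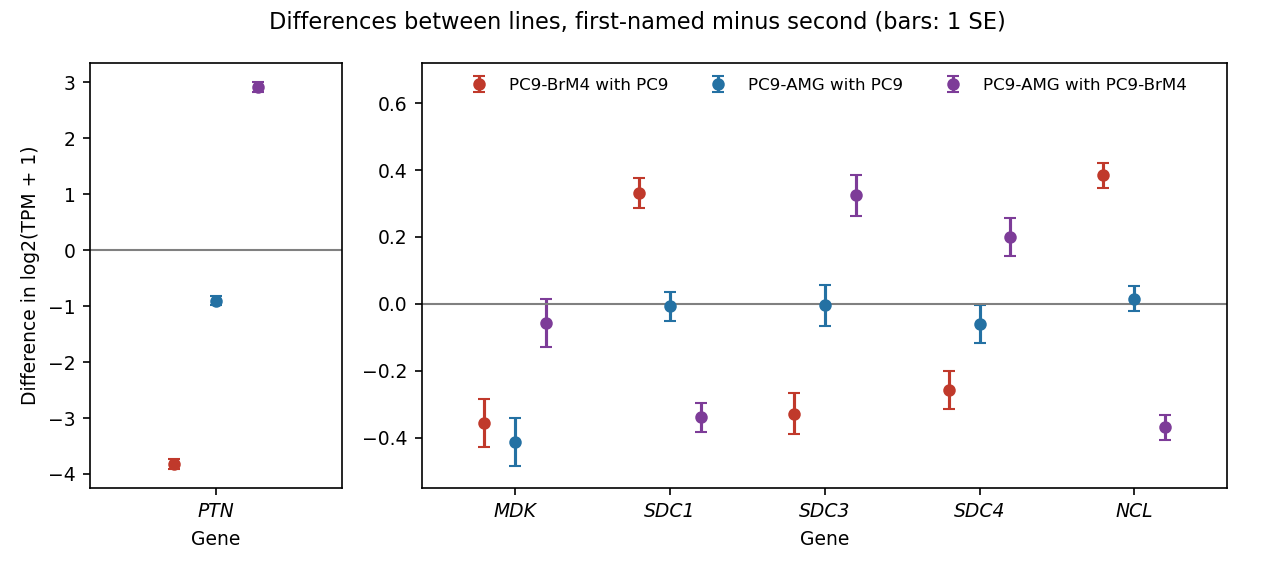
Difference in log2(TPM + 1) between 2 lines for the 6 tested members, points with bars of 1 SE of the limma fit; PTN has an axis of its own at the left. PTN differs by -3.82 between PC9-BrM4 and PC9 and by -0.90 between PC9-AMG and PC9; the other members stay within 0.41 of 0 on this scale.

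The share of all tested genes that were called (limma, Benjamini-Hochberg adjusted p below 0.05) is the background of these counts, and since the members were selected on these values nothing is read from it. In PC9-BrM4 against PC9, 2 of the 6 were in the range called higher and 4 lower, beside 23.4% and 23.1% of all tested genes (46.6% in either direction); 6 did not overlap, beside 75.2%. In PC9-AMG against PC9, 0 were higher and 2 lower, beside 27.8% and 27.7% (55.5%), and 2 did not overlap, beside 79.8%. Between PC9-AMG and PC9-BrM4, 3 were higher in PC9-AMG and 2 lower, beside 28.1% and 28.0% (56.1%), and 5 did not overlap, beside 77.5%. In that direct comparison PTN differed by 2.92 ± 0.09 on the log2 scale, SDC3 by 0.32 ± 0.06, SDC4 by 0.20 ± 0.06, SDC1 by -0.34 ± 0.04 and NCL by -0.37 ± 0.04 (PC9-AMG minus PC9-BrM4, SE).

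Within a line the TPM order of the members was the same apart from MDK and SDC1. In PC9 it ran NCL, MDK, SDC1, SDC4, SDC3, PTN and PTPRZ1, and no neighbours in the order overlapped. In PC9-BrM4 SDC1 stood above MDK, and again no neighbours overlapped. In PC9-AMG MDK and SDC1 overlapped, with a ratio of means of 1.05, and the others did not. The place of MDK depended on the measure. By mean coverage per base it was below SDC1 in PC9 (265 and 208 against 279 and 229). In each subline library it was below SDC4 as well. MDK stood at 193 and 214 against 200 and 221 in PC9-BrM4, and at 206 and 261 against 286 and 299 in PC9-AMG. SDC3 exceeded PTN 2.31-fold in PC9, so a syndecan of modest level stood above the pleiotrophin transcript even where PTN was highest.

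The promoters of PTN, SDC1 and NCL are shown because PTN differed most between lines and SDC1 and NCL were the members higher in PC9-BrM4. RefSeq windows (GRCh38.p14, from 250 bases before to 50 after a gene's start) were found for 6 of the 7 members in 7 windows; MDK had no entry in the table. Only the part before the start of the deposited gene is printed, 5′ to 3′ on the gene's minus strand, at chr7:137343801-137343983 for PTN, chr2:20225476-20225725 for SDC1 and chr2:231464495-231464734 for NCL. Capitals mark letters that match a searched motif on either strand.
PTN: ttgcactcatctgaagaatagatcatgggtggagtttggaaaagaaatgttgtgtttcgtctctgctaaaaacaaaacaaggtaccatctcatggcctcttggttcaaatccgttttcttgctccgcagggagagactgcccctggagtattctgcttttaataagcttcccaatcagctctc
SDC1: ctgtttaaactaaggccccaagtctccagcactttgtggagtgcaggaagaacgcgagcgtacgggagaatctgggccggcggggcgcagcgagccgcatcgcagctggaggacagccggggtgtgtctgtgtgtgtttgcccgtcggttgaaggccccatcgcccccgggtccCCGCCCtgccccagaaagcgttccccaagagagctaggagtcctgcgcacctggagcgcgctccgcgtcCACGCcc
NCL: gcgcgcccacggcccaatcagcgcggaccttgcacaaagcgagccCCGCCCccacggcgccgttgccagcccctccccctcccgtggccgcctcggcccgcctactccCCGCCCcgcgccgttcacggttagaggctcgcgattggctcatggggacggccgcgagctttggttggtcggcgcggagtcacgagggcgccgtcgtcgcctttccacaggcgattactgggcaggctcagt
The motifs were TGANTCA for AP-1, ACGTG and GCGTG for the hypoxia response, CACGTG for the E-box (which contains ACGTG) and GGGCGG for SP1. In all 35116 windows they matched in 7.71%, 21.4%, 36.5%, 7.26% and 45.0%, in that order. The printed PTN stretch held none of the 5 motifs, and its window held 1 AP-1 match after the start. The SDC1 stretch held 1 SP1 and 1 GCGTG match, and the NCL stretch 2 SP1 matches with 1 ACGTG match after the start. SDC1 has another window, not printed, with 1 SP1 match and no other. Of the remaining windows, SDC4 held 8 SP1 matches, SDC3 6 with 1 GCGTG match, and PTPRZ1 2 with 2 GCGTG matches. GC content was 50.3% in the PTN window and 67.7% to 84.0% in those of the other members, against a median of 58.7% over all windows. These are matches of letters only.

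The pathway around the members was described with 6 lists of 126 genes in all, of which 111 were tested; 15 stayed below the level for testing. Against PC9, PC9-BrM4 had 40 listed genes called higher and 23 lower by limma, which is 56.8% in either direction beside 46.6% of all tested genes. The higher count fell when PC9 replicate 1, PC9 replicate 2 or PC9-BrM4 replicate 2 was left out, and the lower count fell most without PC9 replicate 1. After quantile normalization 39 were called higher and 29 lower. PC9-AMG had 38 called higher and 38 lower, 68.5% beside 55.5%. Directly compared, 32 were higher and 41 lower in PC9-AMG, 65.8% beside 56.1%. The median log2 difference of the listed genes was 0.03, 0.05 and -0.06 in these comparisons. By direction, 23.4% of all tested genes were called higher and 23.1% lower in PC9-BrM4. These shares were 27.8% and 27.7% in PC9-AMG, and 28.1% and 28.0% between the sublines. They are the background of the counts of each list below. The counts include VCAN, PTPRB and MMP7, each of which reached 1 TPM in only 1 line.

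**Figure D4:**
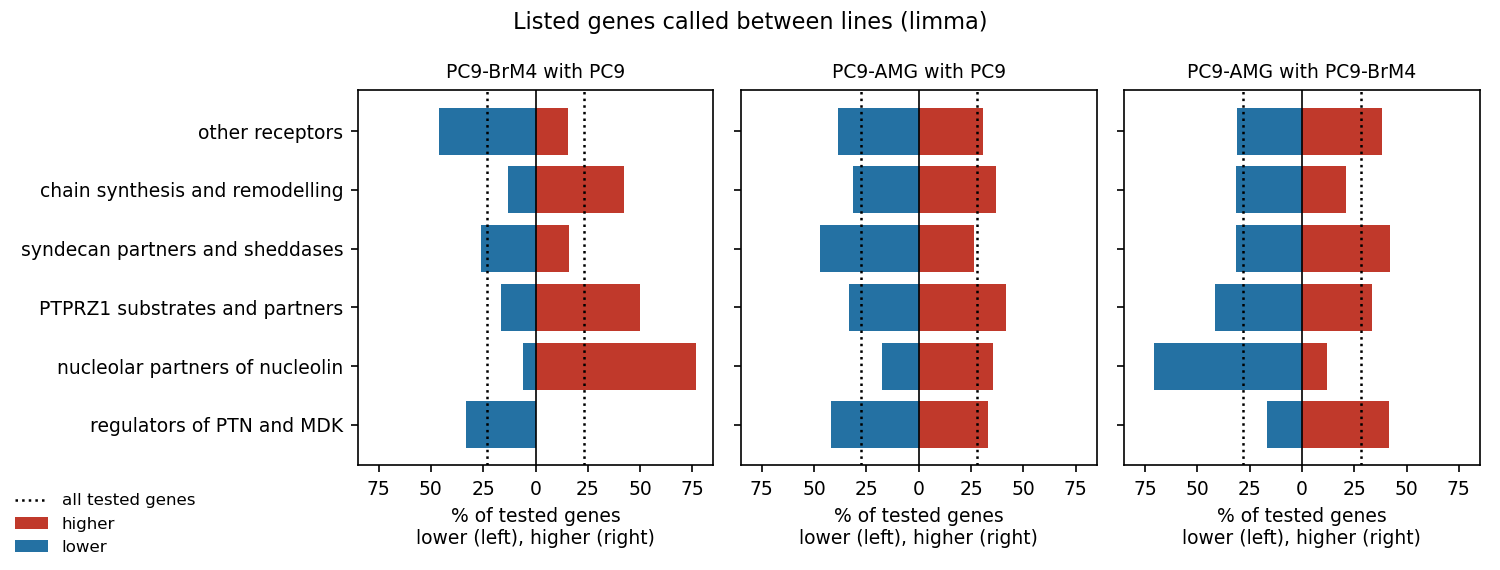
Percent of the tested genes of each list called higher (right) or lower (left) by limma in 3 comparisons; dotted lines give the percent over all tested genes. The nucleolar list has 76.5% called higher in PC9-BrM4 against PC9 and 70.6% called lower in PC9-AMG against PC9-BrM4.

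The other receptors of the ligands, 13 tested of 20 listed, include the endocytic receptor LRP1 and the co-receptor NRP1. ALK, a receptor kinase linked to both ligands, was listed at 0 in all 6 libraries, and its relative LTK only reached 0.195 and 0.136 TPM in PC9-AMG. In PC9-BrM4 against PC9, 2 were called higher and 6 lower (15.4% and 46.2%, beside 23.4% and 23.1% of all tested genes, median log2 difference -0.09). Both LRP1, from 13.3 ± 0.335 to 5.03 ± 0.875 TPM (log2 difference -1.25, limma adjusted p = 0.0001161), and NRP1, from 35.7 ± 0.615 to 27.0 ± 1.47 TPM (-0.39, limma adjusted p = 0.004703), fell. In PC9-AMG against PC9, 4 were called higher and 5 lower (30.8% and 38.5%, beside 27.8% and 27.7% of all tested genes). NRP1 fell to 16.0 ± 1.40 TPM (-1.11, limma adjusted p = 3.671e-05), LRP1 fell to 8.95 ± 0.00919 TPM (-0.52, limma adjusted p = 0.004766), and LRP8, a receptor for reelin and lipoproteins, rose from 62.0 ± 0.579 to 90.7 ± 4.13 TPM (0.54, limma adjusted p = 0.000238). NOTCH2 rose in both sublines, from 43.4 ± 1.40 to 56.2 ± 8.08 TPM in PC9-BrM4 and 63.7 ± 4.71 TPM in PC9-AMG. Its PC9-BrM4 call (limma adjusted p = 0.01871) ended without PC9 replicate 2 or PC9-BrM4 replicate 2, at up to 0.07807. The higher count in PC9-BrM4 was 1 without PC9 replicate 2 and 0 when PC9-BrM4 replicate 2 was left out, beside 3 at an unadjusted p below 0.05 with all libraries in the limma fit. In PC9-AMG the higher count was 2 without PC9-AMG replicate 2. Between PC9-AMG and PC9-BrM4, 5 were called higher and 4 lower (38.5% and 30.8%, beside 28.1% and 28.0% of all tested genes). ITGB1, the integrin beta chain, was lower in PC9-AMG at 359 ± 28.8 against 485 ± 13.6 TPM (limma adjusted p = 0.0005545). The higher count between the sublines was 8 with no filter on low values and 3 with a filter at 5 TPM. The higher count in PC9-BrM4 against PC9 was 1 under either. Among the genes counted, VCAN entered the test only through PC9-BrM4, where it is high, and PTPRB only through PC9-AMG (1.08 and 1.10 TPM). VCAN was called higher in PC9-BrM4 and lower in PC9-AMG. PTPRB was called lower in PC9-BrM4 than in PC9 or PC9-AMG. These calls are counted above but carry no weight.

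The enzymes that build and trim glycosaminoglycan chains, the sugar parts of syndecans and PTPRZ1 that hold PTN and MDK, numbered 38 tested of 41. In PC9-BrM4 against PC9, 16 were called higher and 5 lower (42.1% and 13.2%, beside 23.4% and 23.1% of all tested genes, median 0.09). XYLT1, which starts the chain, rose from 0.779 ± 0.0376 to 11.2 ± 1.45 TPM (log2 difference 2.77, limma adjusted p = 5.203e-06), and HS6ST1, a heparan sulphate 6-O-sulphotransferase, rose from 23.0 ± 1.06 to 43.4 ± 3.93 TPM (0.89, limma adjusted p = 0.0001339). UGDH, which supplies UDP-glucuronate, fell from 92.0 ± 3.38 to 30.5 ± 0.676 TPM (-1.56, limma adjusted p = 4.997e-06), and PAPSS2, which makes the sulphate donor, fell from 42.4 ± 1.199 to 22.7 ± 0.0586 TPM (-0.87, limma adjusted p = 2.49e-05). HS6ST2, a second 6-O-sulphotransferase, fell from 28.0 ± 1.14 to 17.2 ± 0.741 TPM (-0.68). CSGALNACT1, which starts chondroitin chains, rose from 6.96 ± 0.383 to 11.3 ± 0.540 TPM (0.63, limma adjusted p = 0.01303), a call that ended without PC9 replicate 1 or PC9-BrM4 replicate 2 (up to 0.0654). The higher count was 9 when PC9 replicate 1 or PC9-BrM4 replicate 2 was left out, and the lower count was 9 after quantile normalization.

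In PC9-AMG against PC9, 14 of these enzymes were called higher and 12 lower (36.8% and 31.6%, beside 27.8% and 27.7% of all tested genes, median 0.08). XYLT2, the second chain-starting enzyme, rose from 19.3 ± 0.198 to 32.6 ± 1.01 TPM (0.73, limma adjusted p = 0.0002056), and EXT1, a heparan sulphate polymerase, from 26.2 ± 0.537 to 40.9 ± 1.98 TPM (0.62, limma adjusted p = 0.0001213). CHST3, a chondroitin sulphotransferase, rose from 26.3 ± 0.374 to 41.3 ± 1.51 TPM (0.63). EXT1 and CHST3 were called higher in PC9-BrM4 against PC9 too (0.53 and 0.34), and XYLT2 was not called there. Of the enzymes named for PC9-BrM4, HS6ST1 and CSGALNACT1 were also called higher in PC9-AMG (0.34 and 0.49). UGDH and HS6ST2 were also called lower there (-0.54 and -0.19), and XYLT1 and PAPSS2 were not called. SULF2, which removes 6-O-sulphate from heparan sulphate outside the cell, fell from 325 ± 10.6 to 185 ± 8.85 TPM (-0.81, limma adjusted p = 4.548e-05), and GLCE and UST also fell (-0.57 and -0.72). The higher count was 9 without PC9 replicate 1 and 8 without PC9 replicate 2. Directly compared, 8 were higher and 12 lower in PC9-AMG than in PC9-BrM4, with XYLT1 at 1.1995 ± 0.0661 against 11.2 TPM; the higher count was 5 without PC9-BrM4 replicate 1 or PC9-AMG replicate 1.

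Among 19 tested syndecan partners and sheddases, 3 were called higher and 5 lower in PC9-BrM4 (15.8% and 26.3%, median -0.08). In PC9-AMG 5 were called higher and 9 lower (26.3% and 47.4%, median -0.18). Over all tested genes these shares were 23.4% and 23.1%, then 27.8% and 27.7%. MMP7, called lower in both sublines, entered the test only through PC9, where it is high (2.25 and 1.32 TPM). It was below 1 TPM in both sublines, so its calls are counted but carry no weight. SDCBP (syntenin), the adaptor of syndecan tails, fell from 167 ± 3.201 to 110.02 ± 1.67 TPM in PC9-BrM4 (log2 difference -0.59, limma adjusted p = 4.796e-05), and EZR (ezrin) rose from 445 ± 4.04 to 590.1 ± 3.06 TPM (0.41, limma adjusted p = 0.0001262). MMP14, a membrane protease that sheds syndecan, fell from 16.9 ± 0.309 to 9.56 ± 0.380 TPM in PC9-BrM4 (-0.76) and to 9.14 ± 0.548 TPM in PC9-AMG (-0.82). ITGB4, an integrin chain that engages SDC1, fell from 179 ± 4.51 to 138 ± 17.0 TPM in PC9-BrM4 (-0.38). The kinase SRC rose in PC9-AMG from 25.9 ± 0.315 to 45.6 ± 2.105 TPM (0.79, limma adjusted p = 7.84e-05). In PC9-BrM4 SRC was 29.9 ± 2.05 TPM (0.20, limma adjusted p = 0.04278), and this call ended in 8 alternatives, among them without either PC9 library or without PC9-BrM4 replicate 2 (up to 0.1804). GIPC1, another adaptor of syndecan tails, rose in PC9-AMG from 186 ± 1.52 to 268 ± 9.23 TPM (0.53), and ARF6 fell from 108 ± 1.36 to 75.3 ± 6.20 TPM (-0.52). The lower count was 3 in PC9-BrM4 without either PC9 library, and 5 in PC9-AMG without PC9 replicate 1 or PC9-AMG replicate 2. Between the sublines 8 were higher and 6 lower in PC9-AMG (42.1% and 31.6%, beside 28.1% and 28.0% of all tested genes).

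Of the 12 tested substrates, scaffolds and ligands of PTPRZ1, 6 were called higher and 2 lower in PC9-BrM4 (median 0.13), beside a phosphatase that was itself below 1 TPM. TNC (tenascin-C), a matrix ligand of PTPRZ1, rose from 3.13 ± 0.282 to 28.5 ± 4.08 TPM (log2 difference 2.83, limma adjusted p = 8.394e-06). The scaffold GIT1 rose from 61.8 ± 1.63 to 97.9 ± 4.50 TPM (0.65, limma adjusted p = 9.717e-05), and DLG4 from 4.32 ± 0.525 to 7.57 ± 0.987 TPM (0.69). NRCAM, an adhesion molecule, fell from 44.0 ± 2.16 to 27.5 ± 2.08 TPM (-0.66, limma adjusted p = 0.0005251). In PC9-AMG 5 were called higher and 4 lower (41.7% and 33.3%, beside 27.8% and 27.7% of all tested genes, median 0.11). The substrate kinase FYN rose from 19.3 ± 0.711 to 41.6 ± 2.07 TPM (1.06, limma adjusted p = 1.993e-05) and paxillin (PXN) from 178 ± 0.166 to 228 ± 0.956 TPM (0.35, limma adjusted p = 0.0005075). FYN was also called higher in PC9-BrM4 than in PC9, at 30.0 ± 0.666 TPM (0.61, limma adjusted p = 0.0002517), and PXN was not called there. The lower count in PC9-BrM4 was 1 without PC9 replicate 1 and 4 with no filter on low values, and the higher count in PC9-AMG was 3 without PC9 replicate 1 or PC9-AMG replicate 2. TNC stood at 3.56 ± 0.617 TPM in PC9-AMG. In PC9-AMG against PC9-BrM4, 33.3% of this list were called higher and 41.7% lower, beside 28.1% and 28.0% of all tested genes. Between the sublines 4 were higher and 5 lower in PC9-AMG, and the higher count was 2 without PC9-BrM4 replicate 1 or PC9-AMG replicate 1.

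Of the nucleolar partners of NCL, genes of ribosome production, 76.5% were called higher in PC9-BrM4 and 5.88% lower. The shares over all tested genes were 23.4% and 23.1%. In PC9-BrM4 against PC9, 13 of 17 were called higher and 1 lower, a median of 0.35, in the comparison in which NCL itself was higher; the higher count lay between 10 and 13 over all alternatives. BOP1, a factor of large-subunit assembly, rose from 65.7 ± 0.585 to 135 ± 6.36 TPM (log2 difference 1.02, limma adjusted p = 9.91e-06). DKC1, the pseudouridine synthase of small nucleolar RNPs, rose from 196 ± 0.0477 to 283 ± 2.66 TPM (0.52, limma adjusted p = 4.849e-05), and POLR1B, a subunit of RNA polymerase I, from 30.1 ± 1.21 to 42.7 ± 2.47 TPM (0.49, limma adjusted p = 0.001248). FBL (fibrillarin) was the 1 called lower, from 444 ± 5.95 to 394 ± 13.0 TPM (-0.17, limma adjusted p = 0.02053), a call that ended without either PC9 library or without PC9-BrM4 replicate 2 (up to 0.1088). In PC9-AMG against PC9, 6 were called higher and 3 lower (35.3% and 17.6%, beside 27.8% and 27.7% of all tested genes, median 0.09). BOP1 was at 96.4 ± 2.82 TPM (0.55, limma adjusted p = 0.0001155), and MYC rose from 79.7 ± 5.18 to 116 ± 3.58 TPM (0.54, limma adjusted p = 0.0002056). NOLC1 rose from 105 ± 1.48 to 129 ± 0.0339 TPM (0.30), and NOP56 fell from 316 ± 10.1 to 274 ± 6.86 TPM (-0.21, limma adjusted p = 0.004611). The lower count there was 1 without PC9 replicate 1. Between the sublines 12 were lower in PC9-AMG and 2 higher (median -0.26), and the higher count was 1 when each library of either subline was left out in turn.

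Of 12 tested genes known to regulate PTN or MDK transcription, 0 were called higher in PC9-BrM4 by limma (0 at an unadjusted p below 0.05) and 4 lower (median -0.15); without PC9-BrM4 replicate 1 the higher count was 1. The 4 lower were 33.3% of this list, beside 23.1% of all tested genes, and the 0 higher stood beside 23.4%. In PC9-BrM4 the retinoic acid receptor RARG fell from 79.8 ± 0.0459 to 48.2 ± 1.37 TPM (log2 difference -0.72, limma adjusted p = 3.345e-05) and SP1 from 55.5 ± 0.524 to 41.4 ± 4.29 TPM (-0.42, limma adjusted p = 0.003342). The hypoxia factor HIF1A fell from 208 ± 6.17 to 177 ± 2.47 TPM (-0.24, limma adjusted p = 0.01588), a call that ended without PC9 replicate 1 or PC9-BrM4 replicate 1 (up to 0.08976). In PC9-AMG 4 were called higher and 5 lower (33.3% and 41.7%, beside 27.8% and 27.7% of all tested genes, median -0.06). The AP-1 genes JUN (62.3 ± 0.267 to 134 ± 11.1 TPM, 1.09, limma adjusted p = 7.283e-05) and JUNB (29.6 ± 1.38 to 50.9 ± 3.34 TPM, 0.76) rose, and FOS fell from 7.49 ± 0.495 to 4.53 ± 0.190 TPM (-0.62). HIF1A fell to 131 ± 11.2 TPM (-0.67, limma adjusted p = 0.0001093). RELA rose from 70.6 ± 1.93 to 89.9 ± 0.0169 TPM (0.34). The lower count was 3 without PC9 replicate 1 or PC9-AMG replicate 2. Between the sublines 5 were higher and 2 lower in PC9-AMG (41.7% and 16.7%, beside 28.1% and 28.0% of all tested genes). JUN was at 134 TPM in PC9-AMG against 55.8 ± 7.17 TPM in PC9-BrM4 (1.25, limma adjusted p = 2.806e-05).

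Neighbours of the members on the chromosome were counted within 2 Mb of each member's middle. Of 13 tested neighbours of PTN, 1 was called higher and 6 lower in PC9-BrM4 against PC9 (median log2 difference -0.28, from -1.30 to 0.28), beside the -3.82 of PTN. Over all tested genes, 23.4% were called higher and 23.1% lower. The -1.30 is LUZP6, which was not called and varied widely (2.46 ± 2.54 TPM in PC9 and 0.224 ± 0.316 in PC9-BrM4, SD). C7orf73 fell from 120 to 80.7 TPM (-0.56, limma adjusted p = 0.0001161), CREB3L2 from 17.5 to 11.5 TPM (-0.57, limma adjusted p = 0.004167) and UBN2 from 9.04 to 5.74 TPM (-0.58, limma adjusted p = 0.004801). MTPN fell from 259 to 196 TPM (-0.40), and its level is uncertain because LUZP6 lies at the same place. NUP205 (-0.22) and TTC26 (-0.37) were also called lower and ATP6V0A4 (0.28) higher, calls that ended without PC9 replicate 1 or 2 (limma adjusted p up to 0.132, 0.05115 and 0.1344 for the 3 genes). NUP205 also lost its call without PC9-BrM4 replicate 1, and ATP6V0A4 without either PC9-BrM4 library. In PC9-AMG 1 neighbour was called higher and 4 lower (median -0.11), beside 27.8% and 27.7% of all tested genes. ATP6V0A4 rose there from 7.21 to 17.3 TPM (1.16, limma adjusted p = 3.767e-05). No tested neighbour moved as far as PTN in PC9-BrM4, and PTN had been chosen with its value known. In PC9-AMG ATP6V0A4 differed from PC9 by more (1.16) than PTN did (-0.90). A part of the region in the PTN difference was not tested.

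All 8 tested neighbours of PTPRZ1 were called lower in PC9-BrM4 (0 higher, by limma, median -0.81, from -1.24 to -0.23), beside 23.1% of all tested genes. CPED1, 1 of the 8, entered the test only through PC9, where it is high. Its mean was 1.35 TPM in PC9, 0.247 in PC9-BrM4 and 0.482 in PC9-AMG. Its lower calls in both sublines are counted but carry no weight. In PC9-BrM4 TSPAN12, a tetraspanin, fell from 10.7 to 3.97 TPM (log2 difference -1.24, limma adjusted p = 0.0002219), FAM3C from 192 to 109 TPM (-0.82, limma adjusted p = 0.0001428) and NDUFA5, a subunit of respiratory complex I, from 34.9 to 18.5 TPM (-0.88, limma adjusted p = 6.758e-05). ING3 (-0.33), WASL (-0.39) and CADPS2 (-0.23) fell less, and the CADPS2 call ended when each library of either line was left out in turn (limma adjusted p up to 0.1333). In PC9-AMG 1 was called higher and 6 lower (median -0.34), beside 27.8% and 27.7% of all tested genes. FAM3C was at 122 TPM in PC9-AMG (-0.65, limma adjusted p = 0.0002896) and TSPAN12 at 7.10 TPM (-0.52). CADPS2 rose there from 13.4 to 16.9 TPM (0.31, limma adjusted p = 0.006324). The TSPAN12 call in PC9-AMG ended without PC9 replicate 1 (0.0545). Around the other members the medians in PC9-BrM4 were 0.08 over 37 genes for MDK, -0.33 over 12 for SDC1, -0.05 over 38 for SDC3, -0.10 over 49 for SDC4 and 0.09 over 34 for NCL.

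**Figure D5:**
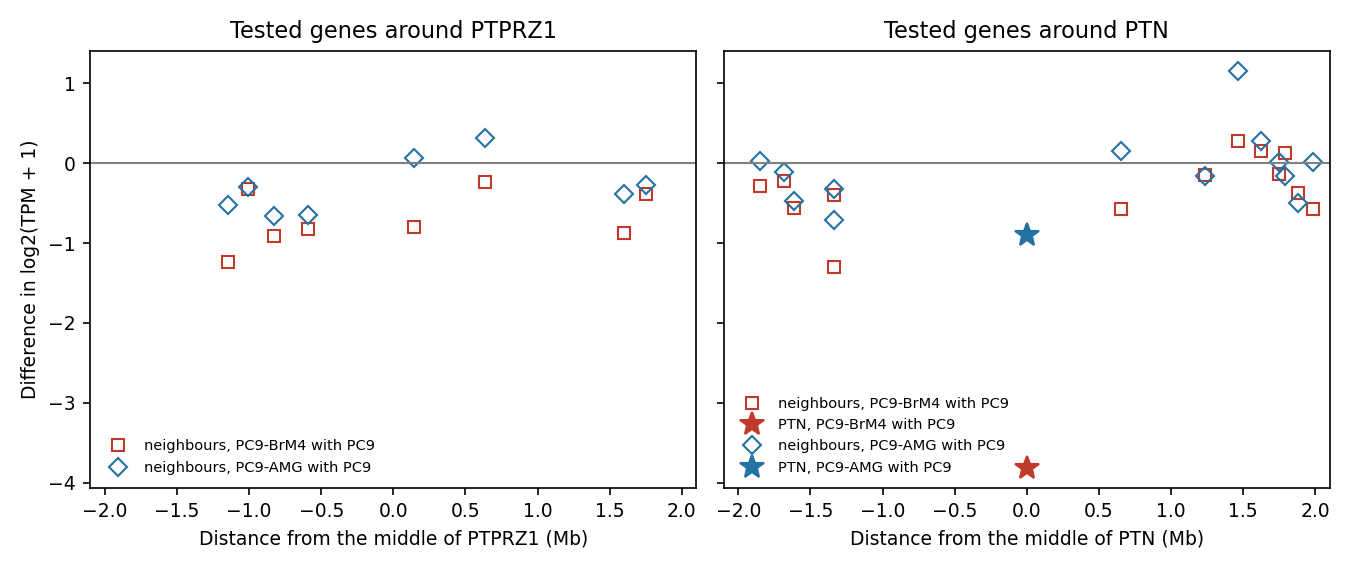
Difference in log2(TPM + 1) from PC9 (PC9-BrM4 squares, PC9-AMG diamonds) of tested genes within 2 Mb of PTPRZ1 (left) and PTN (right), by distance from the member's middle in Mb; stars are PTN itself. The 8 neighbours of PTPRZ1 lie between -1.24 and -0.23 in PC9-BrM4, and the 13 of PTN lie between -1.30 and 0.28, above PTN at -3.82.

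Likeness of pattern was measured as the root mean square difference over the 6 libraries between profiles of log2(TPM + 1), each centred on its own mean. The tested genes nearest to PTN were KYNU (0.271), AOC1 (0.318), CES1 (0.362), CEACAM5 (0.424) and EEF1A2 (0.471). AOC1, a diamine oxidase gene that also lies on chromosome 7, stood at 13.3 and 14.0 TPM in PC9, 0.344 and 0.544 in PC9-BrM4, with 5.54 and 5.34 in PC9-AMG. CES1 has a near-identical pseudogene, so its level is uncertain. KYNU, an enzyme of tryptophan breakdown, stood at 68.9 and 64.7, 5.29 and 6.01, and 57.3 and 50.3 TPM in the same order. Under a pseudocount of 0.1, a pseudocount of 0.5 and FPKM, 2, 4 and 3 of the 5 remained nearest. Nearest to MDK were PRR16 (0.0304), LINC01389 (0.0312), NEDD8 (0.0493), MAPK11 (0.0507) and PSRC1 (0.0515), of which 2, 4 and 2 remained. NEDD8, a ubiquitin-like protein, was at 350.2 ± 11.9 TPM in PC9, 268 ± 9.90 in PC9-BrM4 and 268 ± 13.4 in PC9-AMG. MDK differed little between lines, so many genes lie near it by this measure.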

How the data were processed

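Libraries were prepared with TruSeq Stranded mRNA reagents after TRIzol extraction, per the labels' protocols. The authors deposited 1 gene table per library with TPM, FPKM and coverage values per gene, per the file headers. Per the submitters' processing notes, the tools included StringTie 1.3.4d, HISAT2 2.1.0 and bcl2fastq, on hg38. For annotation release and options, nothing is given in the sources used here. The tables of PC9-AMG carry EMG in their names and were assigned by the sample records. The whole-series table was not used, since its columns and the PC9-AMG labels differ in name.

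Lines of 1 symbol were summed. Genes with at least 1 TPM in at least 2 libraries were fitted as log2(TPM + 1) with limma 3.58.1 (R 4.3.3), with a mean-variance trend, 1 mean per line, all 6 libraries and 3 residual degrees of freedom. P-values were Benjamini-Hochberg adjusted over all 14195 genes, threshold 0.05. On simulated data, 200 of 200 genes changed by a log2 difference of 1 between PC9-BrM4 and PC9 were recovered among 14195 genes, with 8 false calls. The simulated noise was normal, and the changed genes all had a mean log2(TPM + 1) above 1. In the data 46.6% of tested genes were called in that comparison, many at smaller differences, so these rates do not carry over to the calls given here. Depth was estimated from the ratio of coverage to FPKM; read counts were not recovered, so no counting interval is given.

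Named genes are the members, up to 3 called rises and 3 called falls per list with at least 5 TPM in the higher line and no overlap, the 5 nearest in pattern, and called neighbours of PTN and PTPRZ1 with at least 5 TPM; the text gives a part of these. CSPG5, VCAN and CTNNB1 were named for opposite calls. Members and lists were chosen with earlier results of these data known. Alternatives were the pseudocount, the filter, FPKM, scaling, the trend, the libraries fitted and each library left out.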

Additional observations from a re-analysis of the deposited data

Results flagged for a closer look

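Listed genes called in opposite directions in the 2 sublines against PC9 are given here with the limma test of the difference itself (PC9-AMG minus PC9-BrM4, log2(TPM + 1)). VCAN, a matrix proteoglycan that binds midkine, was at 0.816 and 0.737 TPM in PC9, 3.21 and 3.29 TPM in PC9-BrM4, and 0.126 TPM in both PC9-AMG libraries. It entered the test only through PC9-BrM4, where it is high, so its log2 differences of 1.26 in PC9-BrM4 and -0.66 in PC9-AMG against PC9, and of -1.92 between the sublines, are given as values only; the PC9-AMG value sets 2 levels below 1 TPM side by side. CSPG5, a transmembrane proteoglycan of the nervous system, was lower in PC9-BrM4 (-0.65) and higher in PC9-AMG (0.57), a difference of 1.22 (limma adjusted p = 0.0001417); its mean was 1.98 TPM in PC9, 0.894 in PC9-BrM4 and 3.44 in PC9-AMG. Its PC9-AMG call ended without PC9-AMG replicate 2 (limma adjusted p = 0.05074). TIMP3, an inhibitor of sheddases, differed by -0.93 (0.47 and -0.46, limma adjusted p = 4.632e-06), and CHST15, a chondroitin sulphotransferase, by -0.85 (0.43 and -0.42, limma adjusted p = 6.344e-05).

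Among PTPRZ1 partners, AFAP1L2 differed by -0.65 (0.21 and -0.45, limma adjusted p = 4.48e-05) and CTNNB1, beta-catenin, by -0.42 (0.12 and -0.30, limma adjusted p = 9.121e-05). Of the nucleolar genes, NOP56 differed by -0.40 (0.20 and -0.21, limma adjusted p = 0.0001659), WDR12 by -0.42 (0.24 and -0.18, limma adjusted p = 0.0005034) and FBL by 0.34 (-0.17 and 0.17, limma adjusted p = 0.0006441). Several of the calls against PC9 behind these differences ended in alternatives. In PC9-BrM4 the CTNNB1 call ended in 8, among them the replicate block, without either PC9 library and without PC9-BrM4 replicate 1 (limma adjusted p up to 0.2454). The AFAP1L2 call there ended without either PC9 library or without PC9-BrM4 replicate 2 (up to 0.09213), the NOP56 call without PC9 replicate 1 (0.06766) and the WDR12 call without PC9 replicate 2 (0.08285). The PC9-AMG call of WDR12 ended when each library of PC9 or PC9-AMG was left out in turn (limma adjusted p up to 0.1949). FBL lost its PC9-BrM4 call in 5 alternatives (up to 0.1088), among them without either PC9 library or PC9-BrM4 replicate 2, and its PC9-AMG call in 6 (up to 0.111), among them without either PC9 library or PC9-AMG replicate 2. The difference between the sublines kept its call in each alternative run for the 8 genes other than VCAN.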

How the results depend on the processing

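No called member, named listed gene or neighbour, nor any gene with opposite calls, changed direction in the alternatives run for it, at most 15 in a comparison. The log2 difference of PTN lay between -5.51 (pseudocount 0.1) and -2.89 (FPKM) in PC9-BrM4 against PC9, between -0.97 and -0.83 in PC9-AMG against PC9, and between 2.06 and 4.55 between the sublines. The count of listed genes called lower in PC9-BrM4 (23) lay between 15 and 24 when each library was left out, with 15 without PC9 replicate 1. In limma, 54, 38 and 15 values of these genes other than the members lost their call over the alternatives (PC9-BrM4 and then PC9-AMG against PC9, then the sublines directly), and 662, 740 and 656 stayed on the same side of the threshold.

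Taken over all genes, replicate numbers of the lines did not deviate together (correlation of deviations -0.0691, -0.0277 and -0.0627 over 14195 genes). The labels do not say whether equal numbers share a preparation, and a shared deviation of only some genes was not tested. With a replicate block limma called 6126, 7457 and 7599 genes, against 6608, 7882 and 7962 without it, and 62, 73 and 73 listed genes, against 63, 76 and 73. With 2 libraries a line the spread rests on 3 residual degrees of freedom, and where 1 library is left out the lone library is assumed to vary like the other lines. Depth limits PTPRZ1, and PTN in PC9-BrM4.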
